A study of Homo sapiens with 12 samples.

Results

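The p53 target genes described here are 32 listed genes that the transcription factor p53 is known to switch on. They were chosen by name, and each was read from its brightest probe set with a single gene symbol. Of the 32 genes 30 were measured, among 18417 genes in all, and each of the 30 had 1 such probe set; BTG2 and FDXR were not analysed here. No filter on low values was applied. Messenger RNA was measured on 12 Affymetrix arrays. The cells were SK-mel147, a human melanoma cell line grown in DMEM with serum. By the treatment protocol all cells carried a lentivirus that encodes a short hairpin RNA. The sample titles say siRNA instead, and the protocol was followed. The control hairpins were scrambled and luciferase, the hairpins against H2AZ2 were sh_37 and sh_38, and those against H2AZ1 were sh_83 and sh_84, with 2 arrays each. H2AZ1 and H2AZ2 encode the H2A.Z.1 and H2A.Z.2 forms of a histone variant. For replicate 2 of sh_84 the labels disagree on the hairpin, and the title was followed. The labels do not say that replicates came from separate infections, so p-values cover only the spread among arrays, and that spread may be technical. The time between infection and harvest is not given in the sources used here.

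p53 is kept low by MDM2, a ubiquitin ligase that is itself a p53 target, and accumulates when DNA damage, oncogene activity or ribosomal stress relieves this control. Its targets halt the cell cycle, repair DNA, tune metabolism or trigger death.

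p53 binds a response element made of a pair of adjoining copies of a consensus of 10 letters. RefSeq promoter windows (GRCh38.p14, 250 bases before to 50 after a transcription start) were found for 27 of the 32 listed genes, 39 windows in all. Both strands were searched, since the consensus reads the same on each. The consensus occurred in 6 of these 39 windows (15.4%) and in 6.63% of all 35116 windows. A full element of 20 letters with at most 2 mismatches occurred in 2 of the 39 (5.13%) and in 0.157% of all windows; a full element can include a copy of the consensus. The measured genes with a match are shown because their windows hold the letters p53 binds. Each line gives the bases before the start, 5′ to 3′, with the match in capitals (a full element for FAS and AEN, single copies of the consensus for SESN1 and RPS27L), and for DDB2 only 30 bases around a pair of copies just after the start.
FAS, chr10:88991181-88991430, plus strand: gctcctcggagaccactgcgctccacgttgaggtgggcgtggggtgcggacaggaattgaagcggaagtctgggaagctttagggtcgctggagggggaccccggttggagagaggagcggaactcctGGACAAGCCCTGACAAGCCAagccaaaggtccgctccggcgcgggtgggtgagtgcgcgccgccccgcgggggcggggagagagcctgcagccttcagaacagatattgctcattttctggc
AEN, chr15:88621090-88621339, plus strand: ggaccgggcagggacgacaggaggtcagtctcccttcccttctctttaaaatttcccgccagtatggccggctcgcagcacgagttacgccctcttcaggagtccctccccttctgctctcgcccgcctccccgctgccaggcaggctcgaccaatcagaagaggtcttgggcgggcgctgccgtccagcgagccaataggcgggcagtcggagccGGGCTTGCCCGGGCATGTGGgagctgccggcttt
SESN1, chr6:109008989-109009238, minus strand: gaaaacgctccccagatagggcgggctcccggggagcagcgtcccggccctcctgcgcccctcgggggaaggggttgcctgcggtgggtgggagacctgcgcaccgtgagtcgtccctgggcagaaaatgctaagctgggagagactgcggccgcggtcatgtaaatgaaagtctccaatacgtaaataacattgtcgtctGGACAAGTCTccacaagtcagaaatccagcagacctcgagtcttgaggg
RPS27L, chr15:63157478-63157727, minus strand: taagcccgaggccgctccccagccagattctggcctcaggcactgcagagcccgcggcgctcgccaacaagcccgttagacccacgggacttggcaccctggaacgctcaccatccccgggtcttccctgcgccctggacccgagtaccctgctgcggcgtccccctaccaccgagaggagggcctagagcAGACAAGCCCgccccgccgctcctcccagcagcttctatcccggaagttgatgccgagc
DDB2, chr11:47214974-47215003, plus strand: ggtttGAACAAGCCCtGGGCATGTTTggcg
A match is a description of these letters, and binding was not measured. Genes with a match ran from SESN1 and FAS, which rose with H2AZ2 hairpins, to DDB2, which did not pass any test below. CDKN1A and MDM2 rose without a match in their windows.

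The targeted transcripts bear on every comparison by hairpin. With sh_37 H2AZ2 read 46.1% of its control level, and with sh_38 it read 65.4%, so sh_38 was the weaker hairpin (sh_37 minus sh_38 log2 difference -0.50, SE 0.09, adjusted p = 0.00763). H2AZ1 read 19.3% with sh_83. The arrays labelled sh_84 read 92%, where it was not measurably lower (adjusted p = 0.859). Of the melanocyte markers 9 were measured; in the controls SOX10 averaged 10.62 ± 0.12 and MITF 8.29 ± 0.02 (SD, n = 4), while the pigment genes MLANA and TYR averaged 5.09 ± 0.03 and 4.84 ± 0.05. Signal over background is unknown, so presence or absence of a transcript is not stated. The mean level of 193 small nucleolar RNAs, a measure of RNA composition, ran from 6.74 to 7.18 over the control arrays and from 6.69 to 6.94 over the H2AZ2 arrays; with it as a covariate 6 became 5 in the first count of risen genes below.

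The first question was which p53 targets changed with H2AZ2 hairpins. Of the 30 genes 6 rose over the 4 arrays and none fell: CDKN1A, MDM2, FAS, BAX, RRM2B and SESN1. Over all 18417 genes 0.863% rose and 2.44% fell. The median of the 30 was 0.36 on the log2 scale, beside 0.03 over all genes, and 29 of 30 lay above 0, as did 56.3% of all genes. For 14 of the 30 all 4 H2AZ2 arrays lay above all 4 controls, and for none wholly below; over all genes the shares were 4.14% and 7.46%. By unadjusted p under 0.05 23 were higher and 0 lower, beside 6.64% and 10.3% of all genes. The limma fit took the hairpin as a random block, and adjusted p below 0.05 over all genes counted as a rise or fall. The count of 6 fell to 0 without replicate 1 of scrambled, to 3 without replicate 1 of sh_38 and to 3 without replicate 1 of luciferase. It was 1, MDM2, with scrambled alone as control and 0 with luciferase alone, where the fit has fewer arrays.

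**Figure D1:**
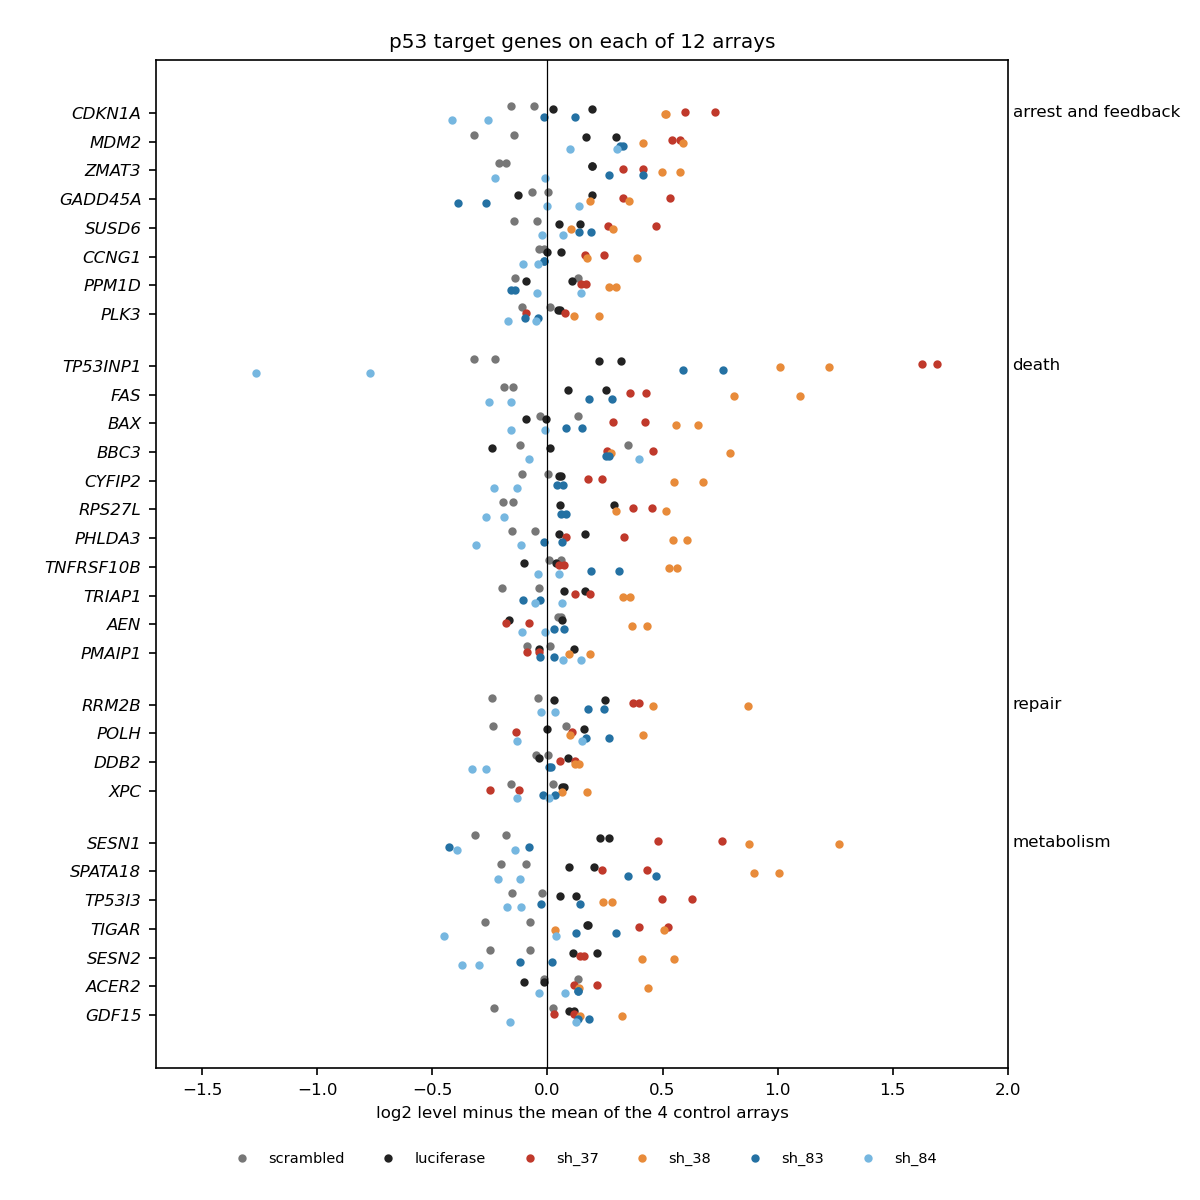
Level of each measured p53 target on each of the 12 arrays, as log2 level minus the mean of the 4 control arrays (horizontal axis), grouped by role and coloured by hairpin. Points of sh_37 and sh_38 lie mostly to the right, those of TP53INP1 reaching farthest; scrambled lies left of luciferase for most genes.

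Genes of cell cycle arrest and of feedback on p53 came first. Of 8 measured, 2 rose with H2AZ2 hairpins over the 4 arrays, and the median was 0.31. CDKN1A encodes p21, which inhibits cyclin-dependent kinases. It stood at 9.76 and 9.86 with scrambled, 10.11 and 9.94 with luciferase, 10.65 and 10.52 with sh_37 and 10.43 and 10.43 with sh_38. All 4 H2AZ2 arrays thus lay above the controls, a 1.5-fold rise (log2 difference 0.59, SE 0.12, adjusted p = 0.0185). With sh_83 it stood at 9.90 and 10.04, within the controls, and the arrays labelled sh_84 read 9.50 and 9.66, below them all, though this difference did not pass (-0.34, SE 0.09, adjusted p = 0.192). MDM2 read 10.03 and 9.86 with scrambled, 10.34 and 10.47 with luciferase, 10.75 and 10.72 with sh_37 and 10.76 and 10.59 with sh_38. It rose 1.44-fold (log2 difference 0.53, SE 0.12, adjusted p = 0.0336). The control hairpins differed here by nearly as much, scrambled minus luciferase -0.46 (SE 0.11, adjusted p = 0.601). With sh_83 MDM2 read 10.49 and 10.50, just above luciferase (log2 difference 0.32 from both controls, adjusted p = 0.196), and the arrays labelled sh_84 read 10.48 and 10.27.

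Among the other genes of this group, ZMAT3, an RNA-binding protein that shapes splicing, passed with each H2AZ2 hairpin taken singly (0.37 with sh_37 and 0.54 with sh_38). Both sh_83 arrays also lay above all controls for ZMAT3, at 127% of the control level beside 129% with sh_37, though sh_83 did not pass. Against luciferase alone ZMAT3 stood at 0.18 with sh_37, 0.34 with sh_38 and 0.15 with sh_83. GADD45A, a stress sensor that slows the G2/M transition, passed with sh_37 (0.43, SE 0.11, adjusted p = 0.0243) and stood at 0.27 with sh_38 (adjusted p = 0.201). SUSD6 likewise passed with sh_37 (0.37) and stood at 0.19 with sh_38. CCNG1, a cyclin that acts in the MDM2 loop, had all 4 H2AZ2 arrays above the controls at a small difference that did not pass (0.24, SE 0.08, adjusted p = 0.105). PPM1D, the phosphatase that switches p53 signalling off, stood at 0.22, and the kinase PLK3 at 0.08, the lowest of the group.

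The death group held the largest difference from the controls, that of TP53INP1, which also differed most between sh_83 and sh_84. Between sh_37 and sh_38 the largest difference was that of SPATA18 (-0.62), of the metabolism group. Of 11 genes 2 rose over the 4 H2AZ2 arrays, and the median was 0.41. FAS, a death receptor, stood at 7.41 and 7.37 with scrambled, 7.65 and 7.81 with luciferase, 7.91 and 7.98 with sh_37 and 8.65 and 8.37 with sh_38. It rose 1.59-fold (log2 difference 0.67, SE 0.17, adjusted p = 0.0461), and its sh_38 arrays stood apart from all others. FAS read 7.84 and 7.74 with sh_83, near luciferase, and 7.40 and 7.31 on those labelled sh_84, near scrambled. BAX, which permeabilises mitochondria, stood at 10.58 and 10.75 with scrambled, 10.61 and 10.53 with luciferase, 10.90 and 11.04 with sh_37 and 11.18 and 11.27 with sh_38. It rose 1.4-fold (0.48, SE 0.10, adjusted p = 0.0204), and unlike most of the 30 genes its scrambled arrays were on average above luciferase, by 0.10. BAX read 10.70 and 10.77 with sh_83 and 10.46 and 10.61 on those labelled sh_84, around the control levels.

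TP53INP1, a nuclear cofactor of p53 linked to death and autophagy, had the largest difference of the 30 genes with each of the 4 knockdown hairpins. It read 8.22 and 8.13 with scrambled, 8.77 and 8.67 with luciferase, 10.14 and 10.07 with sh_37, 9.67 and 9.46 with sh_38, 9.21 and 9.04 with sh_83, and 7.68 and 7.18 on those labelled sh_84. No H2AZ2 or sh_83 array overlapped the controls from above, and no sh_84 array from below. Over the 4 H2AZ2 arrays it stood 2.62-fold above the controls and just missed the threshold (log2 difference 1.39, SE 0.37, adjusted p = 0.056). The SE in this fit is pooled over the control, H2AZ2 and H2AZ1 arrays. The SD of TP53INP1 was 0.33 over the H2AZ2 arrays, 0.32 over the controls and 1.00 over the H2AZ1 arrays. By single hairpin TP53INP1 rose with sh_37 (1.66, SE 0.13, adjusted p = 2.41e-05) and with sh_38 (1.12, SE 0.13, adjusted p = 0.00124). It was also the 1 gene of the list that rose with sh_83 (0.68, SE 0.13, adjusted p = 0.047) and the 1 that fell in the arrays labelled sh_84 (-1.02, SE 0.13, adjusted p = 0.0109). The sh_83 call was lost without any one array of scrambled, luciferase, sh_37, sh_38 or sh_83 (log2 difference from 0.59 to 0.77). The sh_84 call was lost without replicate 2 of sh_84 (-0.77, adjusted p = 0.151) or replicate 1 of luciferase (-0.99). The difference between sh_83 and sh_84 itself was 1.70 (SE 0.15, adjusted p = 0.00074).

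Other death genes passed with sh_38 and not with sh_37. TNFRSF10B, a receptor for the death ligand TRAIL, stood at 0.55 with sh_38 (SE 0.08, adjusted p = 0.00349) and at 0.06 with sh_37. AEN, a nuclease that degrades DNA in dying cells, stood at 0.40 and -0.13, CYFIP2 at 0.61 and 0.21, and PHLDA3, an inhibitor of AKT, at 0.57 and 0.20. TRIAP1, which restrains apoptosis, stood at 0.34 and 0.15. RPS27L, a ribosomal protein relative that binds MDM2, rose alike with both (0.41 and 0.41). The BH3-only genes BBC3 and PMAIP1, which encode PUMA and NOXA, did not pass with either hairpin; BBC3 stood at 0.36 with sh_37 and 0.53 with sh_38 and its scrambled arrays alone spread from 7.84 to 8.30, and PMAIP1 stood at -0.06 and 0.14.

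Of the 4 repair genes, whose median was 0.11, 1 rose over the 4 H2AZ2 arrays. This was RRM2B, a ribonucleotide reductase subunit that supplies nucleotides for repair. It read 7.83 and 7.63 with scrambled, 7.90 and 8.12 with luciferase, 8.24 and 8.27 with sh_37 and 8.74 and 8.33 with sh_38, a 1.44-fold rise (log2 difference 0.53, SE 0.13, adjusted p = 0.0455). The H2AZ2 arrays lay above the controls, with luciferase replicate 2 close below. RRM2B read 8.04 and 8.11 with sh_83 and 7.84 and 7.90 on those labelled sh_84, all within the controls. The nucleotide excision repair genes XPC and DDB2 stood at -0.04 (95% confidence interval -0.25 to 0.18) and 0.11 (-0.08 to 0.30), and the translesion polymerase gene POLH at 0.12 (-0.17 to 0.41). These intervals end below the estimate of 0.53 for RRM2B, which has an SE of 0.13 itself. The genes were not tested against each other. XPC was the 1 gene of the 30 below 0.

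In the metabolism group 1 of 7 measured genes rose over the 4 arrays, and the median was 0.37. SESN1 encodes a sestrin, which senses stress and restrains mTORC1. It stood at 7.05 and 6.92 with scrambled, 7.46 and 7.50 with luciferase, 7.99 and 7.71 with sh_37 and 8.50 and 8.11 with sh_38. It rose 1.8-fold (log2 difference 0.85, SE 0.17, adjusted p = 0.0198), the largest rise among the 6. With sh_83 it stood at 7.15 and 6.80, and those labelled sh_84 read 7.09 and 6.84, near scrambled and below luciferase. SPATA18, which acts in quality control of mitochondria, read 6.95 and 6.84 with scrambled, 7.24 and 7.13 with luciferase, 7.47 and 7.28 with sh_37, 8.05 and 7.94 with sh_38, 7.51 and 7.39 with sh_83, and 6.92 and 6.82 on those labelled sh_84. Its H2AZ2 arrays did not overlap the controls, but the difference over the 4 arrays missed the threshold (0.64, SE 0.19, adjusted p = 0.0787). SPATA18 passed with sh_37 (0.33, adjusted p = 0.0304) and with sh_38 (0.95, adjusted p = 0.000493).

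The oxidoreductase gene TP53I3 passed with sh_37 (0.56, SE 0.08, adjusted p = 0.00137) and stood at 0.26 with sh_38. SESN2, the other sestrin measured, passed with sh_38 (0.48, adjusted p = 0.0106) and stood at 0.15 with sh_37. TIGAR, which lowers glycolytic flux, the ceramidase gene ACER2 and GDF15, a secreted stress hormone, passed with neither hairpin; over the 4 arrays they stood at 0.36, 0.23 and 0.15.

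**Figure D2:**
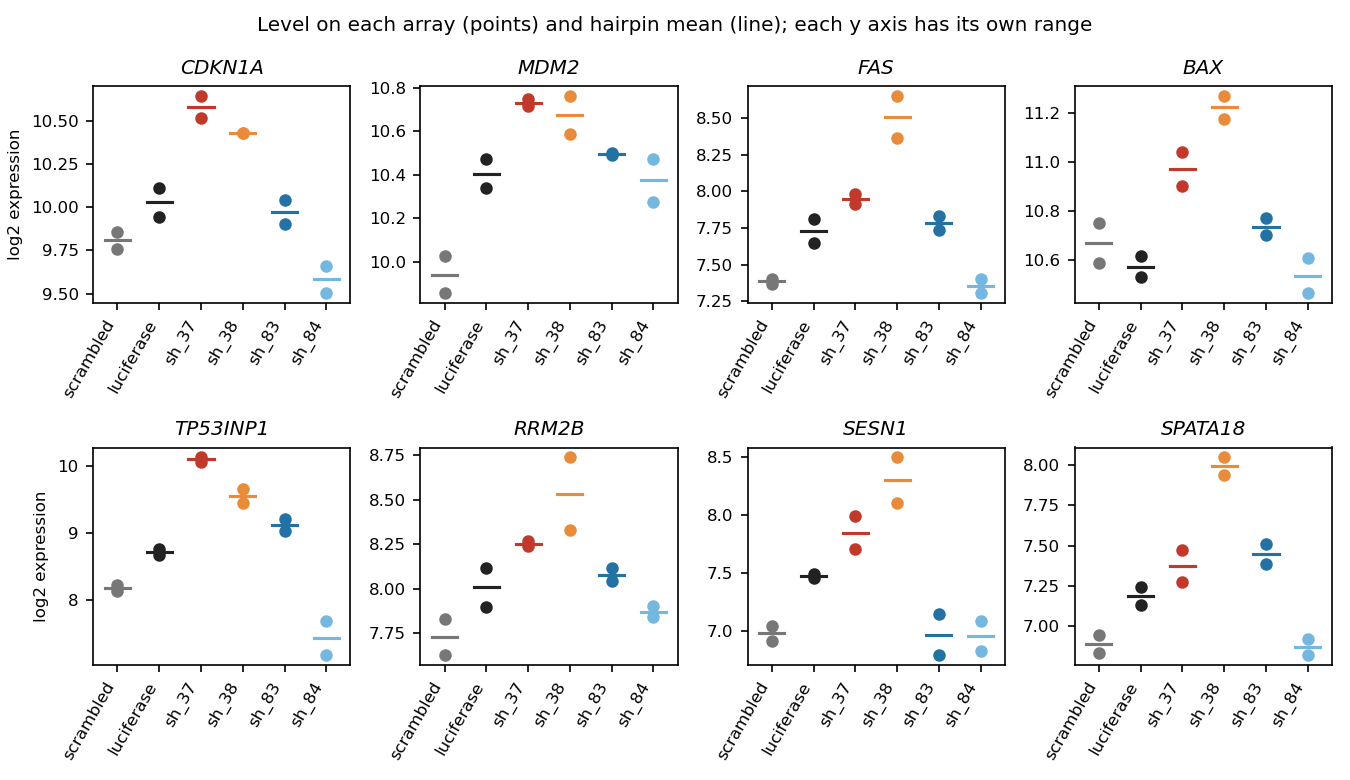
Log2 expression (vertical axis, its own range for each gene) of 8 p53 targets on each array by hairpin, with 2 points per hairpin and a line at their mean. By hairpin mean FAS, BAX, RRM2B, SESN1 and SPATA18 were highest with sh_38, and TP53INP1, CDKN1A and MDM2 with sh_37. The MDM2 means with sh_37 and sh_38 lay close (10.733 and 10.675), and its highest single array was of sh_38. TP53INP1 was lowest in the arrays labelled sh_84.

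By hairpin, 12 of 30 genes rose with sh_37 and 16 with sh_38, and none fell with either; 9 were the same genes. The shares over all genes were 5.72% up and 7.19% down for sh_37, against 1.28% up and 3.33% down for sh_38. The weaker hairpin gave fewer called rises over all genes and a larger share of the p53 targets. These comparisons share their control arrays and the estimate of spread, and fits by hairpin take no account of differences between hairpins of a target. The medians were 0.27 with sh_37 and 0.40 with sh_38, and 25 and 30 of the 30 lay above 0, beside 53.5% and 56.7% of all genes. Both arrays lay above all 4 controls for 17 genes with sh_37 and 23 with sh_38, beside 13.9% and 9.49%. By role, 5 of 8 arrest and feedback genes, 4 of 11 death genes, 0 of 4 repair genes and 3 of 7 metabolism genes rose with sh_37, and with sh_38 the counts were 3, 9, 1 and 3. The count for sh_37 fell to 4 without its replicate 1, to 6 without its replicate 2 and to 4 with luciferase alone as control. The count for sh_38 fell to 6 without its replicate 2 and to 10 with luciferase alone.

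Compared directly, without the controls, sh_37 was lower than sh_38 for 5 genes and higher for none: FAS (-0.56, SE 0.11, adjusted p = 0.0124), TNFRSF10B (-0.49), AEN (-0.53), CYFIP2 (-0.41) and SPATA18 (-0.62, SE 0.10, adjusted p = 0.00488). Over all genes 2.2% were lower and 4.07% higher with sh_37. Of the 5, 4 belong to the death group, whose median was -0.25, and 1 to the metabolism group, whose median was -0.16. The 4 repair genes all lay below 0, with a median of -0.28 and no called gene. The arrest and feedback group had a median of -0.01 and no called gene, and all genes a median of -0.03. In all 8 of the 30 lay above 0, beside 42% of all genes. The interval for CDKN1A ran from -0.08 to 0.38 and that for MDM2 from -0.18 to 0.29, so differences of up to those sizes between the hairpins stay possible. TP53INP1 lay the other way (0.54, SE 0.15, adjusted p = 0.0561), and passed with either sh_84 array left out and under the other alternatives named in the closing section. In the same direct comparison LUM, a fibroblast marker, was higher with sh_37 (0.89), and the leukocyte markers LYZ (-0.68) and CD68 (-0.86) were lower; the mean of 7 leukocyte markers ran from 6.37 to 6.45 with sh_37 and was 6.75 on both sh_38 arrays. The part of these markers in the p53 target differences was not tested. The 5 calls became 1 and 0 without replicates 1 and 2 of sh_37, and 2 and 3 without replicates 1 and 2 of sh_38.

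**Figure D3:**
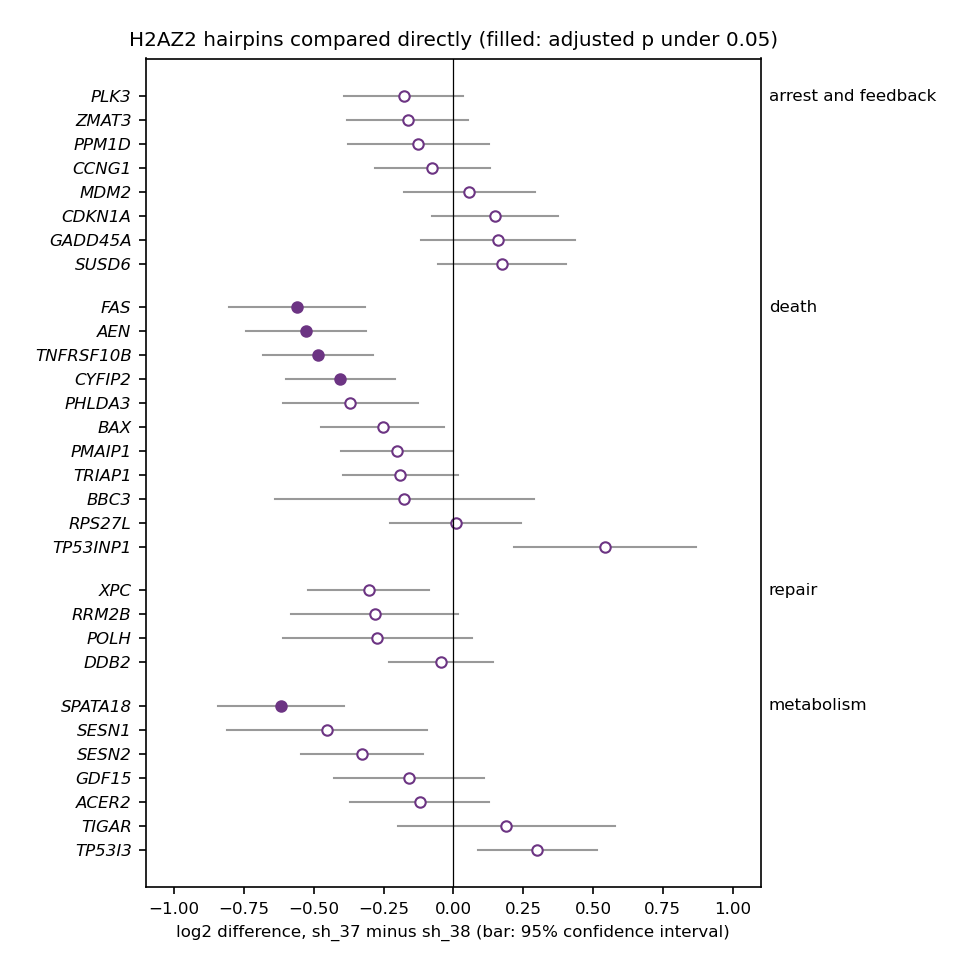
Direct difference between the H2AZ2 hairpins for the 30 measured p53 targets, as log2 difference sh_37 minus sh_38 (horizontal axis) with its 95% confidence interval, grouped by role. Filled points passed the test: FAS, AEN, TNFRSF10B and CYFIP2 in the death group and SPATA18 in the metabolism group, all higher with sh_38.

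The control hairpins give the background for these differences. Scrambled was below luciferase for 25 of the 30 genes, with a median of -0.19, where all genes had a median of 0.00 and 51% lay above 0. For 20 of the 30 both scrambled arrays lay below both luciferase arrays, and for 1, ACER2, above; over all genes 17.1% lay wholly below and 13.4% wholly above. No p53 target and no gene of the 18417 passed the limma test between the control hairpins; by unadjusted p under 0.05 9 of the 30 were lower with scrambled and 0 higher, beside 4.74% and 2.77% of all genes. The largest differences were those of TP53INP1 (-0.55, SE 0.15, adjusted p = 0.601) and SESN1 (-0.49, SE 0.16, adjusted p = 0.628). For the mean of the 4 H2AZ2 arrays, the choice of control moved the size of the rises more than their direction. Against scrambled alone the 4 H2AZ2 arrays averaged above for 30 of 30 genes with a median of 0.41, and lay wholly above for 22. Against luciferase alone they averaged above for 28 of 30 with a median of 0.27, and lay wholly above for 17. All genes lay wholly above in 9.19% and 16.2%. By single hairpin, sh_37 averaged above scrambled for 27 genes (median 0.31) and above luciferase for 23 (median 0.18). The shares of all genes were 48.6% and 54.3%. With sh_38 all 30 averaged above either control (medians 0.45 and 0.30), beside 56.2% and 54.6% of all genes. SESN1 stood at 1.09 against scrambled and 0.60 against luciferase, and MDM2 at 0.76 and 0.30.

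**Figure D4:**
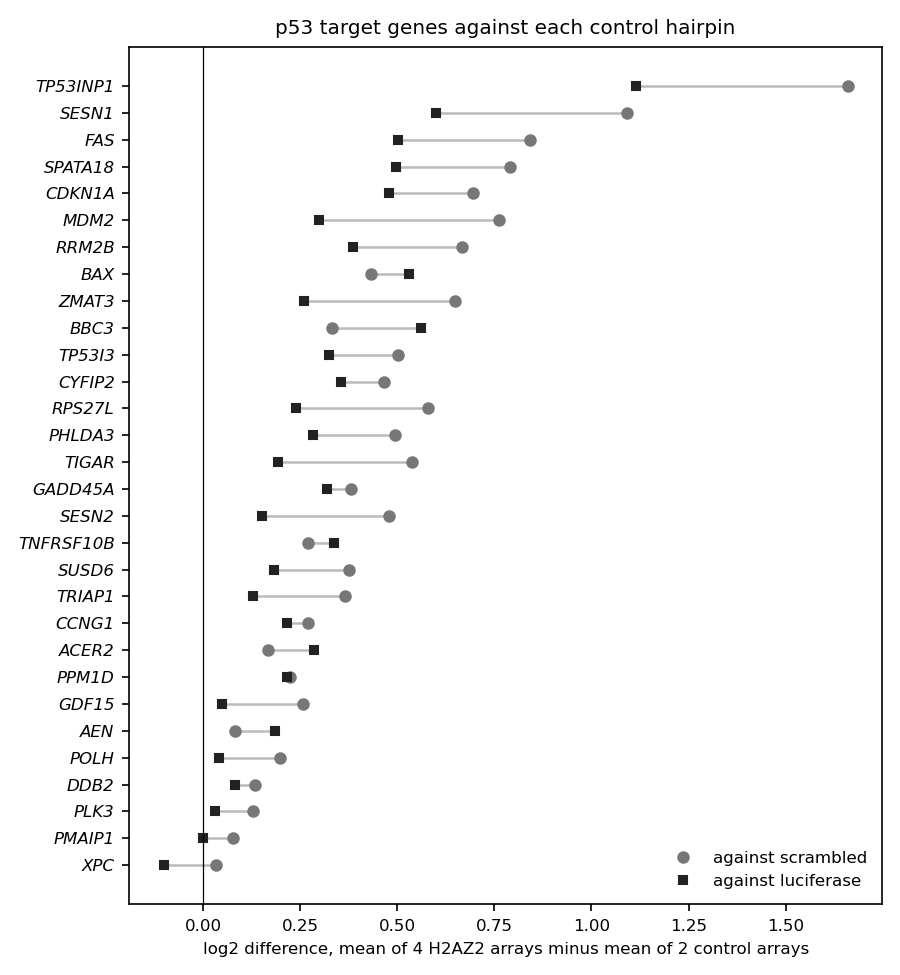
Log2 difference of the mean of the 4 H2AZ2 arrays from the mean of the 2 scrambled arrays (circles) and of the 2 luciferase arrays (squares) for each measured p53 target. Circles lie right of squares for most genes, and only XPC and PMAIP1 reach 0 or below, against luciferase.

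With H2AZ1 hairpins no p53 target passed over the 4 arrays, no gene of the 18417 passed in this limma fit, and 0 of the 30 had an unadjusted p under 0.05, where 0.787% of all genes were higher and 2.67% lower by it; the median was -0.02 and 14 of 30 lay above 0, beside 51.8% of all genes. This mean joins hairpins that differed. With sh_83 1 of 30 rose, TP53INP1, and none fell, beside 0.152% and 0.489% of all genes, and the median was 0.06; in the arrays labelled sh_84 1 fell, TP53INP1, and none rose, beside 0.342% and 0.0109%, and the median was -0.08. Compared directly, TP53INP1 and SPATA18 (0.58, SE 0.10, adjusted p = 0.0249) were higher with sh_83 than on the arrays labelled sh_84 and none lower, beside 0.717% and 0.472% of all genes. The control chosen moved these counts. With sh_83 26 of the 30 genes averaged above scrambled (median 0.14) and 15 above luciferase (median 0.02), beside 51.2% and 51.5% of all genes. On the arrays labelled sh_84 12 averaged above scrambled (median -0.03) and 6 above luciferase (median -0.14), beside 48.4% and 52.7%. For GADD45A both sh_83 arrays lay below all controls (9.68 and 9.80, log2 difference -0.33, SE 0.11, adjusted p = 0.28).

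Tested directly against each other, 12 of the 30 genes were higher with H2AZ2 than with H2AZ1 hairpins and none lower, where 2.08% of all genes were higher and 2.28% lower. For 16 all 4 H2AZ2 arrays lay above all 4 H2AZ1 arrays, beside 6.43% of all genes. The 12 that passed were CDKN1A (0.73, SE 0.12, adjusted p = 0.00571), GADD45A (0.48), CCNG1 (0.29), FAS (0.66), BAX (0.46), PHLDA3 (0.48), TP53INP1 (1.56), CYFIP2 (0.47), RPS27L (0.49), SESN1 (1.11, SE 0.17, adjusted p = 0.00469), SESN2 (0.51) and TP53I3 (0.46). MDM2 stood at 0.27 and did not pass; it, TRIAP1, DDB2 and RRM2B were the other separated genes. The H2AZ1 arrays include those labelled sh_84, in which H2AZ1 was near the control level. Without both of them the count was 1, and without replicate 1 or 2 of sh_84 it was 3 and 2. It was 2 without replicate 1 of scrambled, 6 and 5 without replicates 1 and 2 of sh_37, 5 without replicate 1 of sh_38, 6 without replicate 2 of sh_83 and 4 without replicate 1 of luciferase.

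Further p53 targets, a list of 54 genes of which 50 were measured, moved less. With H2AZ2 hairpins 7 rose and none fell, and the median was 0.13; over all genes 0.863% rose and 2.44% fell. They included TRIM22 (0.93, SE 0.24, adjusted p = 0.0486), an interferon-inducible antiviral protein, the death receptor EDA2R (0.68) and NADSYN1, an enzyme of NAD synthesis (0.59, SE 0.11, adjusted p = 0.0151). Between the H2AZ2 hairpins, 4 of the 50 were higher with sh_37 than with sh_38 and 1 was lower, beside 4.07% and 2.2% of all genes. The median of the 50 was -0.005. The lower gene was EDA2R (-0.63, SE 0.13, adjusted p = 0.0146), and 4 of the 11 death genes above were also lower. Of 26 measured regulators of p53 1 fell, the deacetylase SIRT1 (-0.33, SE 0.08, adjusted p = 0.0457), a count near the 2.44% of all genes that fell, and the median was -0.15. MDM4, the partner of MDM2 that masks p53, stood at -0.27 (SE 0.18, adjusted p = 0.473). Of 37 measured genes on a list of those that p53 can lower through p21 and the DREAM repressor complex, 22 fell and none rose. The median was -0.42, and the largest falls were in CDC25A (-0.86), MCM6 (-0.73) and CDK1 (-0.72). The part of p53 in these falls was not tested. By hairpin 36 of 37 fell with sh_37 and 13 with sh_38, beside 7.19% and 3.33% of all genes. Compared directly, 6 were lower with sh_37 and none higher, beside 2.2% and 4.07% of all genes.

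**Figure D5:**
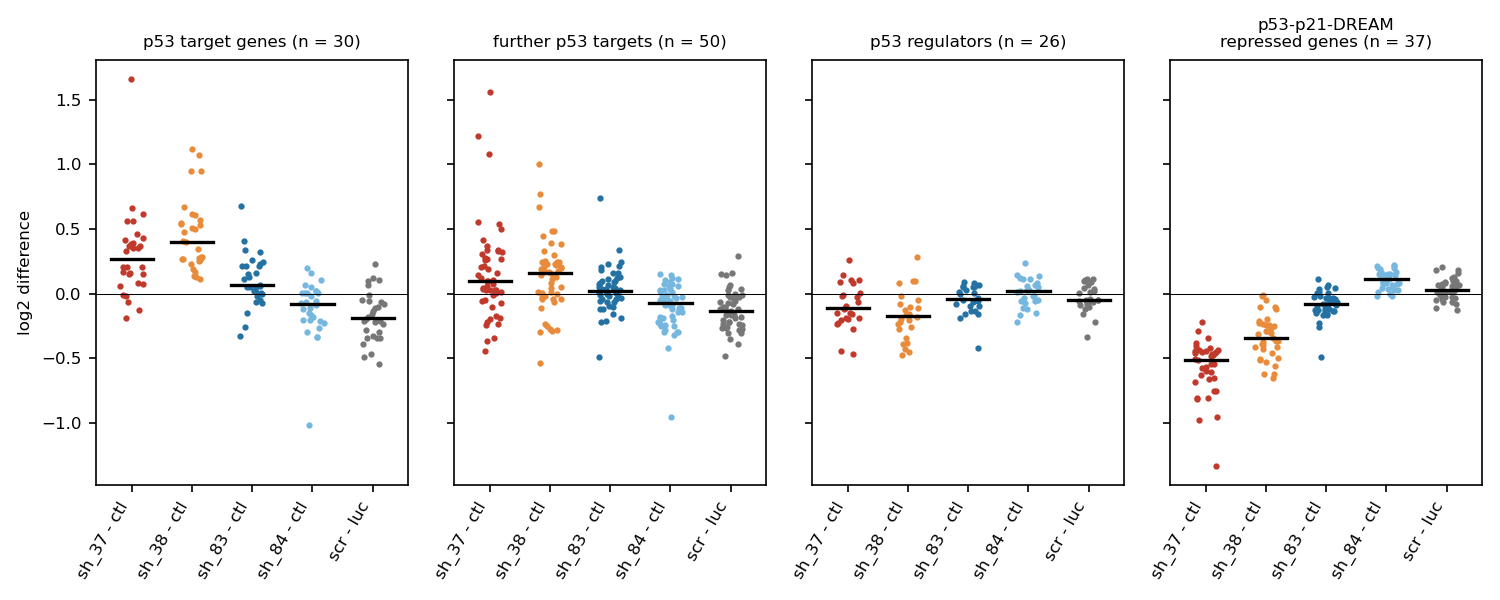
Log2 difference (vertical axis) of each gene of 4 lists, with a line at the list median, for each knockdown hairpin minus both control hairpins and for scrambled minus luciferase. p53 targets lie highest with sh_38 (median 0.40), and the genes listed as repressed through DREAM lowest with sh_37 (median -0.51).

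Markers of other cell types were read beside these values. Of 9 melanocyte markers 1 fell with H2AZ2 hairpins, the transcription factor gene PAX3 (-0.49, adjusted p = 0.0265). None of 8 fibroblast, 8 endothelial, 7 keratinocyte and 7 leukocyte markers passed with H2AZ2 hairpins over the 4 arrays. The mean level of the fibroblast markers ran from 6.42 to 6.62 over the H2AZ2 arrays and from 6.18 to 6.39 over the controls, without overlap. Against both controls together LUM rose with sh_37 (1.27) and with sh_38 (0.38), and COL1A1 with sh_37 (0.69). With sh_38, however, LUM averaged 9.193, no higher than the 9.195 with luciferase, while scrambled averaged 8.432. LUM fell on the arrays labelled sh_84 (-0.85) and was higher with sh_83 than on those (1.07), as TP53INP1 was. The leukocyte markers LYZ and CD68 fell with sh_37 (-0.82 and -0.58). Of the melanocyte markers PAX3 fell with each H2AZ2 hairpin (-0.40 with sh_37 and -0.57 with sh_38), SOX10 fell with sh_37 (-0.30), and EDNRB was lower with H2AZ2 than with H2AZ1 hairpins (-0.37). Endothelial markers ran from 6.19 to 6.40 and from 5.99 to 6.29, keratinocyte markers from 6.19 to 6.49 and from 6.14 to 6.44, and leukocyte markers from 6.37 to 6.75 and from 6.53 to 6.71. Array values have no 0, so no marker can be called absent. Their part in the p53 target values was not tested. In bulk RNA, more RNA per cell and more cells that express a gene cannot be told apart.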

How the data were processed

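The deposited values are log2 expression per probe set on 12 arrays, made by the authors; the submitters' processing notes name RMA, with no version given in the sources used here. The platform annotation paired 19460 of 33297 probe sets with a single symbol and 1754 with more than 1, and 12083 had no entry; symbols were updated by Entrez ID (19429 matched). The brightest probe set was kept for the 769 genes with several.

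Tests used limma 3.58.1 in R 4.3.3 with Benjamini-Hochberg adjustment over 18417 genes and a threshold of 0.05. Comparisons of targets used 4 arrays each with the hairpin as a random block (consensus correlation 0.157); single hairpins and control hairpins came from a fit of 6 groups of 2. On simulated arrays the fit for H2AZ2 against control (18417 genes) recovered 70% of log2 changes of 0.5 and 95% of changes of 1, and 7.3% of its calls were false, above the share the threshold aims at; for sh_37 the shares were 53%, 88% and 5.37%, and for sh_38 48%, 89% and 5.52%. The simulation took its spread from arrays of the same hairpin and gave both H2AZ2 hairpins the same change. It therefore does not give the recovery for genes whose hairpins of a target differ. The number of arrays limits the precision, and no scan batch is given in the sources used here.

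The genes, lists and roles were chosen with earlier results of these data known. Values in every array were given for genes past the threshold with H2AZ2 hairpins, CDKN1A, MDM2 and the 2 largest differences of each hairpin and between controls; from the other lists up to 3 called genes each way. Single genes singled out beyond that were chosen after their values were seen. Alternatives are given in the closing section.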

Additional observations from a re-analysis of the deposited data

Results flagged for a closer look

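In 3 of 90 checks of 4 arrays of a target, 1 array stood far from the others; chance gives about 1 in 20. MDM2 was low at 10.27 in replicate 2 of sh_84 (next array 10.48), AEN at 9.54 in replicate 1 of luciferase (next 9.75) and GDF15 at 7.13 in replicate 1 of sh_84 (next 7.42).

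Effects that differed between the H2AZ2 hairpins by the direct test (sh_37 minus sh_38) were FAS at -0.56, TNFRSF10B at -0.49, AEN at -0.53, CYFIP2 at -0.41 and SPATA18 at -0.62, adjusted p from 0.00488 to 0.0209. Between the H2AZ1 hairpins (sh_83 minus sh_84) they were TP53INP1 at 1.70 and SPATA18 at 0.58. Between H2AZ2 and H2AZ1 hairpins they were CDKN1A at 0.73, GADD45A at 0.48, CCNG1 at 0.29, FAS at 0.66, BAX at 0.46, PHLDA3 at 0.48, TP53INP1 at 1.56, CYFIP2 at 0.47, RPS27L at 0.49, SESN1 at 1.11, SESN2 at 0.51 and TP53I3 at 0.46, adjusted p from 0.00469 to 0.0484.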

How the results depend on the processing

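No named gene that passed in either fit changed direction under any alternative run. The count of p53 targets that rose with H2AZ2 hairpins was 6; it was 1 with scrambled alone as control, 0 with luciferase alone and 10 with a trended robust variance, and 0 to 8 with 1 array left out. For sh_37 the count of 12 became 4 and for sh_38 the count of 16 became 10 with luciferase alone; with 1 array left out they ran from 4 to 14 and from 6 to 17. For sh_83 the count of 1 became 0 with scrambled alone, with luciferase alone and with median centring, 2 with the replicate block and with a trended robust variance, and 3 with the small nucleolar RNA covariate; it was 0 to 1 with 1 array left out. For sh_84 the 1 fall became 0 with scrambled alone, 2 with luciferase alone and 2 with a trended robust variance, and was 0 to 1 with 1 array left out. For H2AZ2 against H2AZ1 hairpins the count of 12 became 6 with the replicate block and 1 without both sh_84 arrays, a setting chosen after seeing the data, and 2 to 12 with 1 array left out. For sh_37 minus sh_38 the 5 falls became 8 with the small nucleolar RNA covariate and 0 to 5 with 1 array left out; 1 rise, TP53INP1, appeared with the replicate block, without the dimmest 25% of genes, with a trended robust variance, with that covariate and without both sh_84 arrays, and 0 to 1 with 1 array left out. For sh_83 minus sh_84 the count of 2 became 5 with a trended robust variance and 5 with that covariate, and 1 to 2 with 1 array left out. The cause of these shifts was not tested, beyond fewer arrays where arrays were left out. The labels do not say what a shared replicate number means. Deviations of replicate 1 correlated above 0.1 in 9 of 15 pairs of hairpins (-0.47 to 0.68). Among scrambled, sh_37, sh_38 and sh_84 every pair was positive (0.375 to 0.677). Luciferase was negative with each of these hairpins (-0.469 to -0.131). A batch shared by replicate number, with luciferase in reverse order, was not tested. The replicate block was run only as an alternative. Where leaving out an array left 1 array of a hairpin, that array was assumed to vary like the others. Signal over background is unknown, and dim probe sets may understate changes.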

Other observations

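Among the further p53 targets, the hairpins against H2AZ2 parted most for genes outside the report's lists of named genes, chosen here after their values were seen. DRAM1, a lysosomal membrane protein that p53 uses to drive autophagy, read 10.71 and 10.84 with sh_37, 9.71 and 9.50 with sh_38 and 8.99 to 9.40 in the controls; it rose with both hairpins and differed between them (sh_37 minus sh_38 1.17, SE 0.11, limma adjusted p = 0.000178). KITLG, the ligand of the receptor KIT, read 8.45 and 8.50 with sh_37 and 7.09 and 6.95 with sh_38, the latter within the controls (6.93 to 7.66; sh_37 minus sh_38 1.45, SE 0.17, limma adjusted p = 0.000603). These genes lie opposite to FAS, TNFRSF10B and EDA2R, which were higher with sh_38.

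TRIM22 moved by hairpin as TP53INP1 did at the extremes: it read 9.02 and 9.02 with sh_37, 8.84 and 8.57 with sh_38, 8.09 and 7.79 with sh_83, 7.27 and 6.70 on those labelled sh_84 and 7.75 to 8.14 in the controls. It rose with both H2AZ2 hairpins and fell in the arrays labelled sh_84 (-0.95, SE 0.15, limma adjusted p = 0.0289), though with sh_83 it stood at 0.01.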
